A study of Mus musculus with 2 samples.

Results

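The 10 genes described here encode cytosolic and endoplasmic reticulum chaperones and the heat shock transcription factors: Hspa1a, Hspa1b, Hspa8, Hspa5, Hsp90aa1, Hsp90ab1, Dnajb1, Hsph1, Hsf1 and Hsf2. They were chosen by symbol among the 21951 protein-coding genes of the GENCODE M21 annotation of the mouse genome (mm10), and the window of each runs from 10 kb before its gene body to 10 kb after it. The data are DNase-seq, which maps open chromatin by cutting nuclear DNA with DNase I, from frontal cortex tissue of female B6CASTF1/J mice, an F1 hybrid of C57BL/6J and CAST/EiJ, at 14 days of age. There was 1 group with 2 biological replicates, which are separate biosamples under the same donor label, and the labels carry a mark "3x" whose meaning is not stated. No treatment, heat stress or comparison group was part of the design, so the values describe this tissue as it was collected and no condition was tested.

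Chaperones bind unfolded or partly folded proteins and help them fold, assemble or be degraded. HSP70 proteins do this in cycles of ATP binding and hydrolysis that J proteins such as Dnajb1 start and nucleotide exchange factors such as Hsph1 complete, and HSP90 proteins act later on signalling proteins and other clients. Hsf1 is the main activator of the heat shock response: it is held inactive in resting cells, forms trimers under protein-folding stress and binds heat shock elements, which are inverted repeats of the unit GAA. Hspa1a and Hspa1b are the classical stress-induced HSP70 genes, while Hspa8 and Hsp90ab1 are expressed in nearly all cells without stress, neurons included.

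The elements that the promoter results turn on are shown first. A heat shock element was defined as 3 alternating units of GAA and TTC with 2 bases between units, that is GAANNTTCNNGAA or TTCNNGAANNTTC on either strand, with all 9 fixed bases matched. Capitals mark the 13 bases of the match, each sequence is written 5′ to 3′ on the strand of its gene, and the coordinates are on mm10. The first 4 lie in the strongest promoter peaks of members. The last 3 lie in promoter footprints, widened by 5 bp on each side, of wider chaperone genes that are not members. The footprints were called in both libraries at Stip1 and in replicate 2 only at Hspd1 and Dnajb6.
Hsp90aa1, chr12:110696387-110696399, minus strand: TTCCGGAAGGTTC
Hspa8, chr9:40801063-40801075, plus strand: GAAAGTTCCAGAA
Hspa8, chr9:40801221-40801233, plus strand: TTCTGGAAGGTTC
Hsph1, chr5:149636280-149636308, minus strand: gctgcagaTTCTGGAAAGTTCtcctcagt
Hspd1, chr1:55088056-55088084, minus strand: gcggggccTTCCGGAAGGTTCtagaacgg
Dnajb6, chr5:29735844-29735872, plus strand: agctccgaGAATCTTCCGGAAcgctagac
Stip1, chr19:7040271-7040299, minus strand: gagttgtgGAAATTTCCAGAAagaacagg
The 13 matched bases were the same in Hsp90aa1 and Hspd1. Heat shock elements were rare: a match lay in the 300 bp window of any annotated transcription start site (TSS), from 250 bp before to 50 bp after it, in 1.49% of protein-coding genes, and in 3 of the 10 members, Hspa8, Hsp90aa1 and Hsph1. These have 9, 8 and 9 annotated TSSs, and a gene with more TSSs has more windows. At the 5′ end of the gene record alone, a match lay in 0 members and 0.474% of protein-coding genes.

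Peaks, footprints and cut rates were called by the authors separately in each library. A peak is a stretch of open chromatin, and its strength is the signal value deposited with it, whose scale is not stated. A footprint is a short stretch that is protected from DNase I relative to the DNA around it. It is used here by position only and need not lie inside a called peak. The longer of the 2 peak lists of each library held 93641 peaks in replicate 1 and 66196 in replicate 2, the shorter lists held 53068 and 36975, and the footprint lists held 234094 and 154015. All signal values came in whole steps, of size 0.006697 for replicate 1 and 0.008577 for replicate 2. If 1 step were 1 cut, replicate 1 would be 1.28 times as deep. As a check of the tissue label, a promoter peak was called in each library at 6 of 6 pan-neuronal marker genes, at 2 of 6 excitatory, 2 of 4 inhibitory, 3 of 4 astrocyte, 1 of 4 oligodendrocyte, 0 of 4 microglial, 0 of 3 endothelial and 0 of 3 liver genes. In replicate 1 alone, all 6 excitatory markers, 3 of 4 inhibitory markers and 1 of 3 liver genes had one. The tissue was not sorted, so a strong peak in few cells and a weak peak in many cannot be told apart.

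All 10 members had a promoter peak in both libraries, that is a peak with its midpoint within 500 bp of an annotated TSS of the gene. The same was true of 58.2% of protein-coding genes, with 63.2% in replicate 1 and 58.6% in replicate 2. The strongest promoter peak of each member was also in the shorter list in both libraries. The median strength of the members was 6.31 in replicate 1 and 3.14 in replicate 2, against 2.69 and 1.86 over protein-coding genes with a promoter peak. Ranked among those genes, the members had a median percentile of 90.9 in replicate 1 and 79.0 in replicate 2. The members did not form one level: Hspa8, Hspa5, Hsp90ab1, Dnajb1 and Hsph1 were at or above percentile 90.0 in both libraries, and Hspa1a and Hspa1b were below the median of the genes that have a promoter peak. No test was made, since there is 1 group of 2 libraries.

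**Figure D1:**
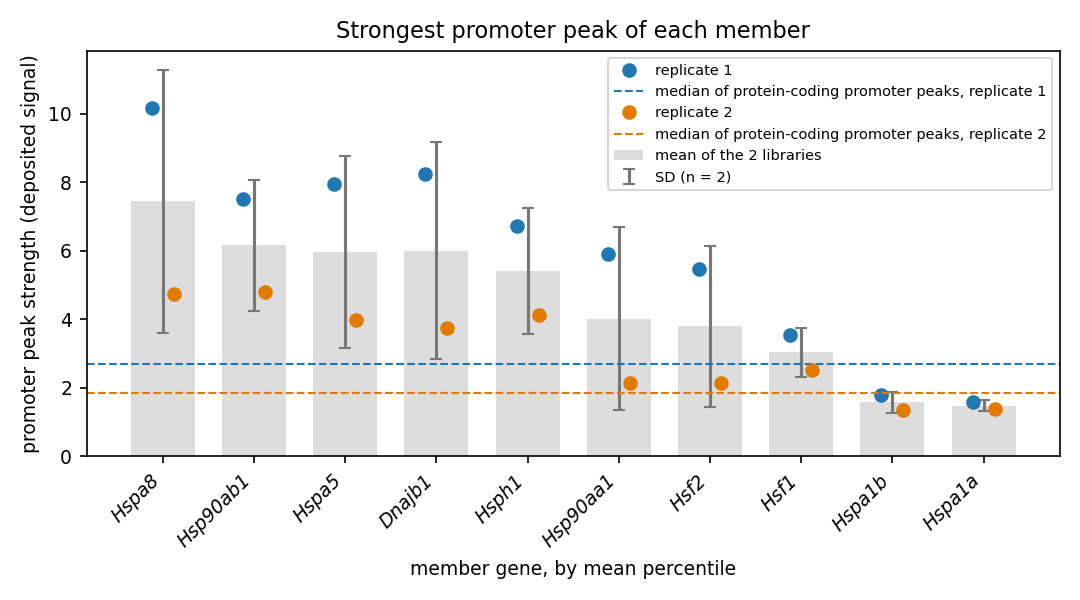
Strength of the strongest promoter peak (deposited signal, y axis) of each member (x axis, ordered by mean percentile), with points for the 2 libraries, bars for their mean and error bars for the SD (n = 2). Dashed lines give the medians of protein-coding promoter peaks, 2.69 and 1.86, and only Hspa1a and Hspa1b lie below them in both libraries.

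Hspa8 encodes the constitutive cytosolic HSP70, which also uncoats clathrin vesicles. Its promoter peak measured 10.2 in replicate 1 and 4.73 in replicate 2 (mean 7.44 ± 3.83, SD, n = 2), which are percentiles 99.6 and 96.4. The peak called in replicate 1, chr9:40800801-40801240, began upstream of the 5′ end of the gene record, while that of replicate 2, chr9:40801061-40801300, covered only transcribed sequence, so the pair of values compares overlapping but different intervals. Both intervals lay in or next to annotated 5′ UTR and held both heat shock elements.

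Hspa5 encodes BiP, the HSP70 of the endoplasmic reticulum and a target of the unfolded protein response. Its promoter peak reached 7.94 in replicate 1 and 3.98 in replicate 2 (mean 5.96 ± 2.80, SD, n = 2), percentiles 97.3 and 92.0. It was the only member with an endoplasmic reticulum stress element (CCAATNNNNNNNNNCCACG), an element present in 0.102% of protein-coding promoter peaks in each library. The element, in capitals, lay inside the peak in both libraries but in no footprint.
Hspa5, chr2:34772020-34772048, plus strand: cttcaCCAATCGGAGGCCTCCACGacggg
The widest Hspa5 promoter footprint that both libraries shared lay just upstream of the 5′ end of the record, and the 24 bases covered in both are in capitals.
Hspa5, chr2:34771909-34771947, plus strand: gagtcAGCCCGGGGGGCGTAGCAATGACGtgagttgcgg

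The 2 cytosolic HSP90 genes differed in how well the libraries agreed. Hsp90ab1, the constitutive form, had a promoter peak at the same position in both libraries, chr17:45573201-45573440, at 7.51 in replicate 1 and 4.80 in replicate 2 (mean 6.16 ± 1.91, SD, n = 2). These are percentiles 96.2 and 96.8, and the value of replicate 2 was the highest among the members in that library. Hsp90aa1, the more stress-inducible form, had 5.90 in replicate 1 and 2.14 in replicate 2 (mean 4.02 ± 2.66, SD, n = 2), percentiles 88.3 and 57.2. This strongest Hsp90aa1 peak did not lie at the 5′ end of the gene record: its midpoint was 46 bp in replicate 1 and 76 bp in replicate 2 from an annotated TSS at position 110696395 of chromosome 12, inside the longest transcript.

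At the 5′ end of the Hsp90aa1 record there was a weaker peak, at 2.45 in replicate 1 and 1.66 in replicate 2, whose midpoint lay 383 and 393 bp from the TSS at that 5′ end. Inside it both libraries called a footprint, 33 bp wide in replicate 1 and 32 bp in replicate 2, which held a match to the consensus of CTCF, the zinc finger protein that organises chromatin loops. This consensus was searched only after the footprint sequence had been seen. Its match is in capitals below, and it was found in 0.362% of all footprints within 500 bp of a TSS in replicate 1 and 0.407% in replicate 2.
Hsp90aa1, chr12:110703099-110703127, minus strand: gcagctgaCCAGCAGGTGGCGctaaacac

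Dnajb1 encodes the HSP40 J protein that works with cytosolic HSP70. Its promoter peak measured 8.24 in replicate 1 and 3.76 in replicate 2 (mean 5.997 ± 3.17, SD, n = 2), percentiles 97.8 and 90.0. The peak also covers the TSS of Tecr, an enzyme of very long chain fatty acid synthesis that starts 222 bp away on the opposite strand, so the open chromatin cannot be given to either gene alone. Hsph1 encodes HSP110, the exchange factor of HSP70, and had 6.71 in replicate 1 and 4.12 in replicate 2 (mean 5.41 ± 1.83, SD, n = 2), percentiles 93.4 and 93.2. A second promoter peak of Hsph1, 335 bp upstream of the record's 5′ end and identical in position in both libraries, reached 4.35 and 3.39.

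The widest promoter footprint of Hsph1 lay just upstream of the record's 5′ end, inside the peak of replicate 2 and at the edge of that of replicate 1. It is shown because its letters match the X-box, the element of RFX factors, which was searched only after the sequence had been seen. The 33 bases covered in both libraries are in capitals. An X-box match was present in 0.117% of footprints within 500 bp of a TSS in replicate 1 and 0.123% in replicate 2.
Hsph1, chr5:149636393-149636429, minus strand: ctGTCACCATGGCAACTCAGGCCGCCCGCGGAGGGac

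Hspa1a and Hspa1b had the weakest promoter peaks of the members in both libraries. Hspa1a had 1.59 in replicate 1 and 1.37 in replicate 2 (mean 1.48 ± 0.157, SD, n = 2), percentiles 30.7 and 34.9. Hspa1b had 1.80 in replicate 1 and 1.36 in replicate 2 (mean 1.58 ± 0.310, SD, n = 2), percentiles 34.6 and 34.7. The peaks were nevertheless in the shorter list in both libraries, and every base of them was listed with a false discovery rate of the cut rate below 0.05. Hspa1a and Hspa1b are near-identical copies: 247 of the 250 bases before the TSS were the same (98.8%), and 258 of the 260 bases of the Hspa1a peak of replicate 1. How reads that match both copies were placed is not given in the sources used here, so the split of signal between the 2 genes is uncertain, and its part in their low values was not tested.

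The 130 bases upstream of each TSS differ at 1 base between the copies, and are shown with the bases that lie in footprints of both libraries in capitals.
Hspa1a, chr17:34972157-34972286, minus strand: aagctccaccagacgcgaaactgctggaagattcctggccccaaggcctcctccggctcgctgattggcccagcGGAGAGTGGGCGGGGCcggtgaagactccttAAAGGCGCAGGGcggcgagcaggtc
Hspa1b, chr17:34959239-34959368, minus strand: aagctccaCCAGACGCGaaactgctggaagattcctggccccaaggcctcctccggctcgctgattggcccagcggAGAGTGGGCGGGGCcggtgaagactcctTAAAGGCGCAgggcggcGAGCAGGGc
In both copies the footprints of the 2 libraries shared the GC box GGGCGG 49 bp upstream of the TSS and the letters AAAGGCGCA close to the TSS. The 2-unit heat shock element GAAGATTC, 104 bp upstream in both copies, lay inside the peak of both libraries and in no footprint of either. Since the placement of reads that match both copies is not given, this likeness of the copies need not come from separate observations.

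The factor genes had intermediate strengths. Hsf1 had 3.55 in replicate 1 and 2.53 in replicate 2 (mean 3.04 ± 0.721, SD, n = 2), percentiles 63.1 and 67.9. Its peak also covers the TSS of Bop1, a ribosome biogenesis factor that starts 145 bp away on the opposite strand. Hsf2, a paralogue of Hsf1 with roles in development, had 5.46 in replicate 1 and 2.14 in replicate 2 (mean 3.80 ± 2.35, SD, n = 2), percentiles 85.1 and 57.2. Its peak covers the TSS of the long noncoding RNA 4930467K11Rik, 34 bp away on the opposite strand. No heat shock element of 2 or 3 units was found in the promoter windows of Hsf1 or Hsf2.

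The order of the members was partly the same in the 2 libraries: 35 of 45 pairs of members were ordered alike. In replicate 1 the order from the strongest was Hspa8, Dnajb1, Hspa5, Hsp90ab1, Hsph1, Hsp90aa1, Hsf2, Hsf1, Hspa1b and Hspa1a. In replicate 2 it was Hsp90ab1, Hspa8, Hsph1, Hspa5, Dnajb1, Hsf1, then Hsp90aa1 and Hsf2 at the same value, Hspa1a and Hspa1b. With 1 step read as 1 cut, the exact 95% Poisson intervals of neighbours did not overlap at 3 places in replicate 1, between Hspa8 and Dnajb1, Hsf2 and Hsf1, and Hsf1 and Hspa1b. They did not overlap at 2 places in replicate 2, between Dnajb1 and Hsf1 and between Hsf2 and Hspa1a. These intervals cover counting error only.

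Every member was stronger in replicate 1, but not by the same ratio. Only Hsp90ab1 had its strongest promoter peak called over the same interval in both libraries. The other ratios compare overlapping but different intervals, such as 280 bp in replicate 1 and 460 bp in replicate 2 at Hsp90aa1. The ratio of replicate 1 to replicate 2 had a median of 1.81 over the members and 1.55 over 12771 protein-coding genes with a promoter peak in both libraries, where the quartiles were 1.32 and 1.80. It was 1.66 over the 3283 genes with a mean percentile of 75 or more, which include 5 members. The ratio was 2.76 for Hsp90aa1 and 2.56 for Hsf2, percentiles 99.8 and 99.5 of all ratios, with peaks of 73.9% and 72.1% GC in replicate 1. Ratios were 2.19 for Dnajb1 (71.0% GC), 2.15 for Hspa8 (69.3% GC) and 1.99 for Hspa5 (63.0% GC). Hsph1 at 1.63 (59.1% GC), Hsp90ab1 at 1.56 (71.3% GC) and Hsf1 at 1.40 (69.6% GC) lay near the median of all genes, and Hspa1b at 1.32 (63.3% GC) and Hspa1a at 1.16 (63.5% GC) lay below it. Hsp90aa1 and Hsf2 had both the highest ratios and the highest GC content in replicate 1. Hspa5, Hspa1a and Hspa1b had nearly the same GC content and ratios from 1.16 to 1.99. The part of GC content or depth in these ratios was not tested. When only the TSS at the 5′ end of each gene record was used, the median ratio of the members was 1.60.

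**Figure D2:**
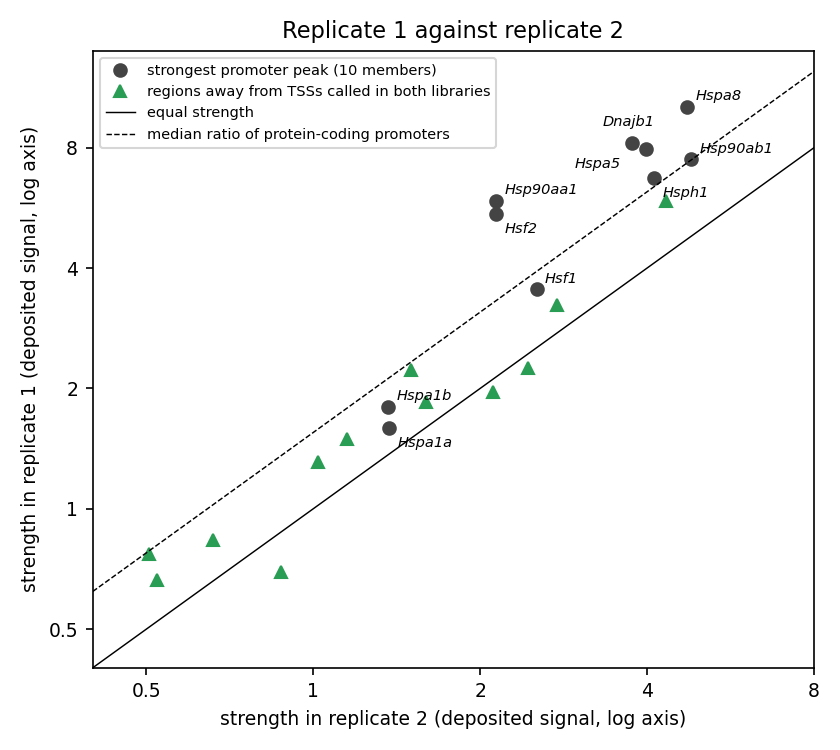
Peak strength in replicate 1 (y axis) against replicate 2 (x axis), both deposited signal on log axes, for the strongest promoter peak of each member (circles) and for regions away from TSSs called in both libraries (triangles). The solid line marks equal strength and the dashed line the median ratio of protein-coding promoters, 1.55. Hsp90aa1 and Hsf2 lie farthest above the dashed line, and 3 triangles lie below the solid line.

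Promoter footprints were dense at the members. Within 500 bp of any annotated TSS in the member windows there were 128 footprints in replicate 1 and 124 in replicate 2. The medians per member were 12.5 and 11, against 6 and 4 over protein-coding genes. The sets differ, since every member had a promoter peak but only 63.2% and 58.6% of protein-coding genes did. As the mean of the libraries, 94.5 of 126 such footprints in the member windows lay inside called peaks. The share that overlapped a footprint called in the other library was 61.7% in replicate 1 and 67.7% in replicate 2, against 44.6% and 61.7% over all footprints near TSSs. Footprints covered 36.7% of the bases of the members' strongest promoter peaks in replicate 1 and 27.6% in replicate 2, against 22.8% and 19.7% for protein-coding genes. Stronger peaks give a footprint caller more cuts to work with, and the part of peak strength in these shares was not tested. Per member, the count in the window ran in replicate 1 from 7 at Hspa5 to 23 at Hspa8, and in replicate 2 from 9 at Hsp90ab1 to 21 at Hspa1a. The window of Hspa1a takes in the promoters of Hspa1b, Hspa1l and Lsm2.

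Of the motifs searched, the GC box, the binding element of Sp1 and related factors (GGGCGG or CCGCCC), had the most matches in the members' footprints. In replicate 1, 17 of the 20 GC boxes in the strongest promoter peaks lay in a footprint widened by 5 bp on each side (85.0%, against 61.2% of GC boxes in all protein-coding promoter peaks). In replicate 2 it was 16 of 24 (66.7%, against 53.2%). Hsp90ab1 had 5 GC boxes in its peak, 5 of them in footprints in replicate 1 and 4 in replicate 2. CCAAT boxes (CCAAT or ATTGG), the element of NF-Y, lay in footprints in 6 of 14 cases in replicate 1 and 5 of 15 in replicate 2 (42.9% and 33.3%, against 36.2% and 31.0%). No member's strongest promoter peak held the TATA box TATAAA or the ETS site CCGGAAGT. The only CRE (TGACGTCA, the element of CREB) was in Hsp90ab1, in a footprint in replicate 1 and not in replicate 2. In all promoter peaks 88.9% of CREs in replicate 1 and 75.8% in replicate 2 lay in footprints. Matches of different motifs can overlap, as a GC box and a 2-unit heat shock element of Dnajb1 do by 1 base.

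**Figure D3:**
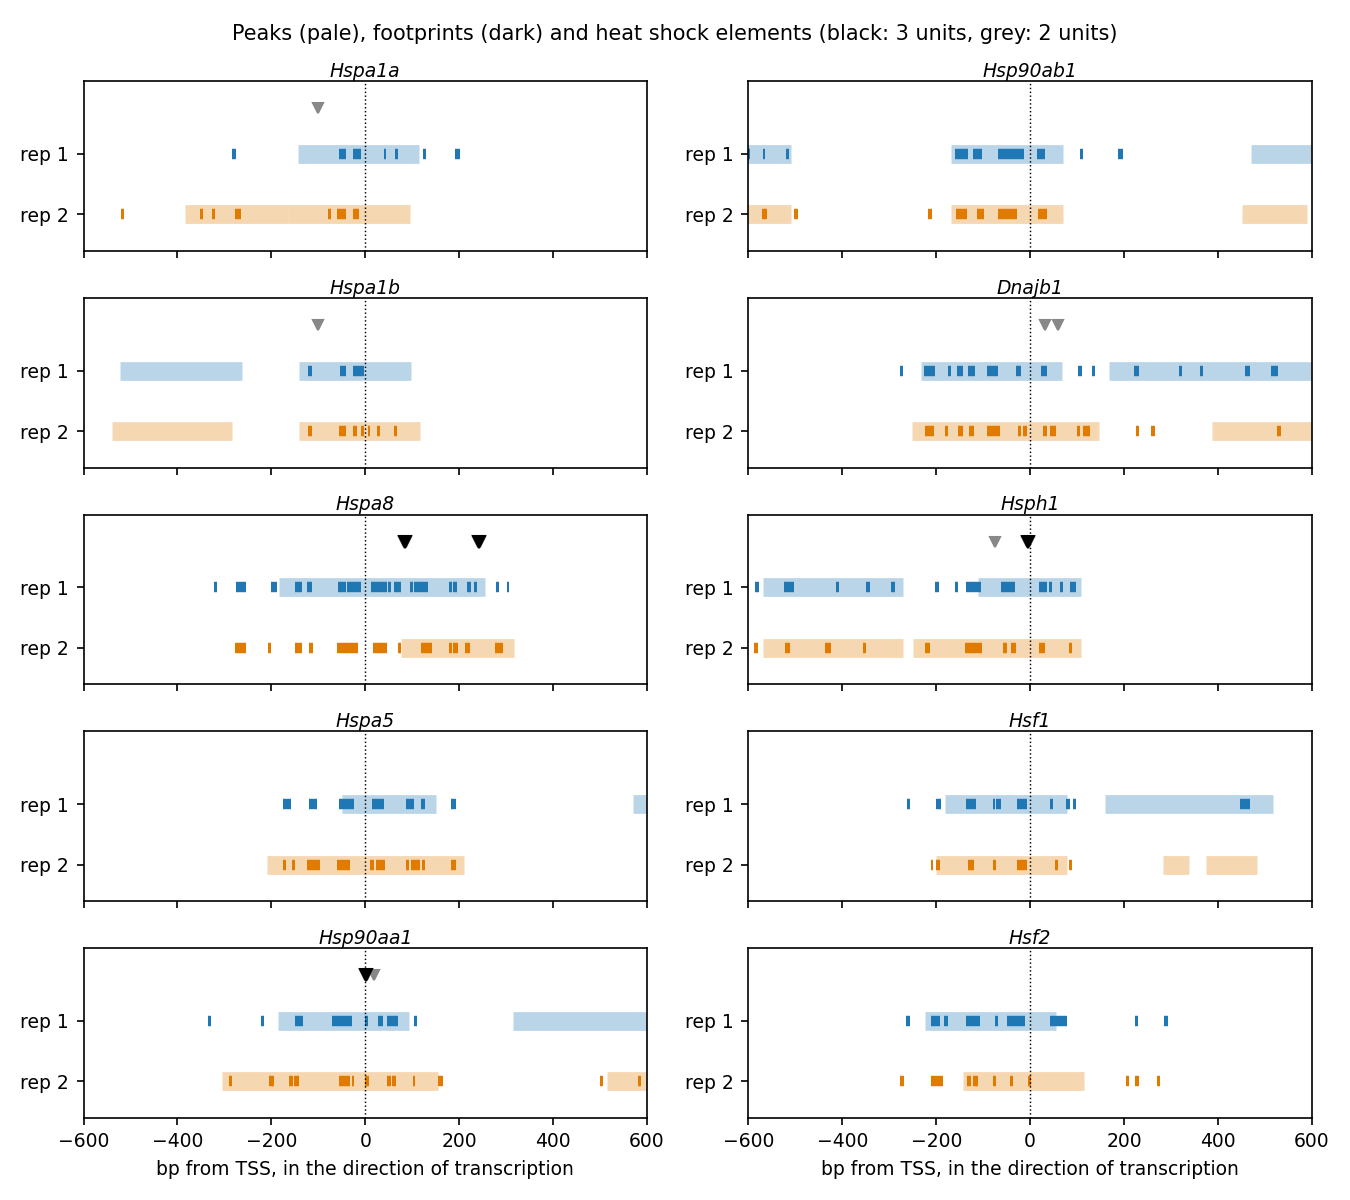
Peaks (pale bars), footprints (dark bars) and heat shock elements (black triangles, 3 units; grey triangles, 2 units) around the TSS nearest to each member's strongest promoter peak of replicate 1, with distance from that TSS in bp on the x axis and 1 row for each library. At Hsp90aa1 the 3-unit element sits on a footprint in both libraries, whereas the elements of Hsph1, Hspa1a and Hspa1b lie in peaks but outside footprints.

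Heat shock elements were present in several members' promoter peaks, and 1 of them lay in a footprint. The strongest promoter peaks of 3 of the 10 members held a 3-unit element, against 0.212% of the 12728 promoter peaks of protein-coding genes in replicate 1 and 0.281% of 11730 in replicate 2. The members were put on the list as heat shock genes, so this count is a description and no independent evidence. Of the 4 matches in the members, 1 lay in a footprint in each library, and over all promoter peaks 4 of 31 did in replicate 1 (12.9%) and 9 of 37 in replicate 2 (24.3%). For 2-unit elements (GAANNTTC or TTCNNGAA), which also count the parts of 3-unit elements, it was 3 of 14 in each library, against 247 of 1235 matches in all promoter peaks in replicate 1 and 215 of 1199 in replicate 2.

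The footprinted element was that of Hsp90aa1, and it depended on how footprints were widened. The footprint itself was 7 bp wide in replicate 1 and 9 bp in replicate 2 and lay wholly inside the 13 bp element, and both the footprint and the element cover the internal TSS. The element was therefore inside the footprint only after the 5 bp were added on each side, and without them no member had a 3-unit element inside a footprint. The second Hspa8 element overlapped an 8 bp footprint of replicate 1 by 2 bp, and the Hsph1 element overlapped none. At Dnajb1 a 2-unit element, GAAGGTTC, lay in a footprint 13 bp wide in replicate 1 and 8 bp wide in replicate 2. It is in capitals here, 28 bp downstream of the TSS.
Dnajb1, chr8:83608210-83608239, plus strand: cgggaggggcgGAAGGTTCtggagggctgg

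Among all protein-coding genes, 15 (0.0683%) had a 3-unit element in a promoter footprint of either library, at 11 sites since some neighbours share a promoter. For this count too, footprints were widened by 5 bp on each side. Besides Hsp90aa1, 4 of them were on the wider list of chaperone genes described below. Stip1, which encodes the cochaperone Hop that links HSP70 to HSP90, had it in both libraries. Its footprint was 14 bp wide in replicate 1 and 7 bp in replicate 2, and the element lay in a called peak in replicate 1 only. Hspd1 and Hspe1, the mitochondrial HSP60 and HSP10 that share a promoter, and Dnajb6, a J protein, had it in replicate 2 only. The other genes were Deaf1, Gm5129, Hikeshi, Hist1h2ac, Hist1h2bc, Map2k4, Morf4l2, Phrf1, Slc35e2 and Tmem80, named after their values were seen. Of these, Deaf1, Hikeshi, Phrf1, Slc35e2 and Tmem80 had it in both libraries. Hikeshi carries HSP70 into the nucleus under heat stress.

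Away from TSSs the member windows held a median of 1.5 peaks in replicate 1 and 1 in replicate 2. Over protein-coding genes the median was 1 in each library. The median window was 27340 bp for the members and 37400 bp for protein-coding genes. Counting each region once, 12 were called in both libraries, 3 in replicate 1 only and 0 in replicate 2 only, and 7 of the 10 members had such a region in both libraries, against 56.1% of protein-coding genes. Hspa1a, Hspa1b and Hsf2 had none. The strongest lay 0.62 kb upstream of Hsp90ab1, chr17:45573781-45574000, at 5.89 in replicate 1 and 4.32 in replicate 2 (mean 5.11 ± 1.11, SD, n = 2). It was stronger than the strongest promoter peaks of 4 members in replicate 1 and of 8 in replicate 2, and at 69.1% GC it was the most GC-rich of the 12. A second region 1.09 kb upstream of Hsp90ab1 had 2.23 and 1.501.

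The next strongest were a region 14.3 kb downstream of the 5′ end of Dnajb1, with 3.24 and 2.75, and a pair of regions in introns of Bop1 upstream of Hsf1. The latter lay 8.92 kb upstream, with 2.25 in replicate 1 and 2.44 in replicate 2, and 4.70 kb upstream, with 1.96 and 2.11. Both were slightly stronger in replicate 2. Over the genome, the same held for 25.7% of peaks away from TSSs with a CTCF match and 27.9% of those without. A region in an intron of Hspa8, 4.50 kb downstream of its 5′ end, had 1.86 and 1.60. In these 3 intronic regions, at Hsf1 and Hspa8, footprints of both libraries held the CTCF consensus, searched after it was seen at Hsp90aa1, with the match in capitals below.
Hsf1, chr15:76468489-76468517, plus strand: gtcgctatCCACCAGAGGGCAgcactgac
Hsf1, chr15:76472702-76472730, plus strand: tccacactCCACCAGATGGCGctaacact
Hspa8, chr9:40805466-40805494, minus strand: aaggctggCCACTAGGTGGCAgtttaaca
Of footprints away from TSSs in the member windows, 3 of 37 in replicate 1 and 3 of 27 in replicate 2 held the match (8.11% and 11.1%), against 3.03% and 4.45% of all footprints away from TSSs. The strand of a match says nothing about the direction of a gene.

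The remaining regions were weak. The strongest of those called in replicate 1 only was near Hsph1, chr5:149612021-149612120, with a strength of 0.549. The ratio of replicate 1 to replicate 2 over the 12 shared regions had a median of 1.27 and ran from 0.796 to 1.52, against a median of 1.16 over 36188 peaks away from TSSs in the genome. Footprints away from TSSs numbered 37 in replicate 1 and 27 in replicate 2. The medians per member were 3 and 1, against 2 and 1 over protein-coding genes. The region near Hspa5 lay in an intron of Rabepk, and 2 of the Hsp90ab1 window's promoter peaks in replicate 1 belong to Slc35b2, so a region in a window need not act on the member.

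The wider chaperone list of 53 genes showed where this pattern held and where it did not. A promoter peak was present in both libraries in 42 of the 53 (79.2%), against the 58.2% above, with a median percentile of 85.4. The list was chosen with earlier results of these data known, so this share is a description and no independent evidence. All 15 cochaperones, all 13 J proteins, 2 of 2 HSP60 and HSP10 genes, 2 of 2 further HSP90 genes and 8 of 10 further HSP70 genes had one. The 5 highest were Hspa2, a HSP70 known for its role in spermatogenesis, with 9.96 in replicate 1 and 7.27 in replicate 2, and then Dnajc3, Dnajb6, Dnajb9 and Dnajb11. Dnajc3, Dnajb9 and Dnajb11 are J proteins of the endoplasmic reticulum, like BiP, and had 8.44 and 5.25, 9.24 and 4.37, and 7.33 and 4.75.

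Promoter peaks were fewer in the remaining families, with no test of the difference: 0 of 3 further HSF genes and 2 of 8 small heat shock protein genes had one in both libraries. Small heat shock proteins hold unfolded proteins without ATP, and the 2 genes were Hspb6 with 4.51 and 3.72 and Cryab with 0.810 and 0.712. The 8 genes with a promoter peak in neither library were the small heat shock protein genes Hspb1, Hspb2, Hspb7, Hspb8 and Cryaa, the HSP70 relative Hspa12b, and the factors Hsf3 and Hsf5. Of the further factors, Hsf4 had a weak peak in replicate 1 only, 0.529. Hspa1l, the HSP70 gene whose TSS lies 547 bp from that of Hspa1a, had one in replicate 2 only, at 1.05.

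**Figure D4:**
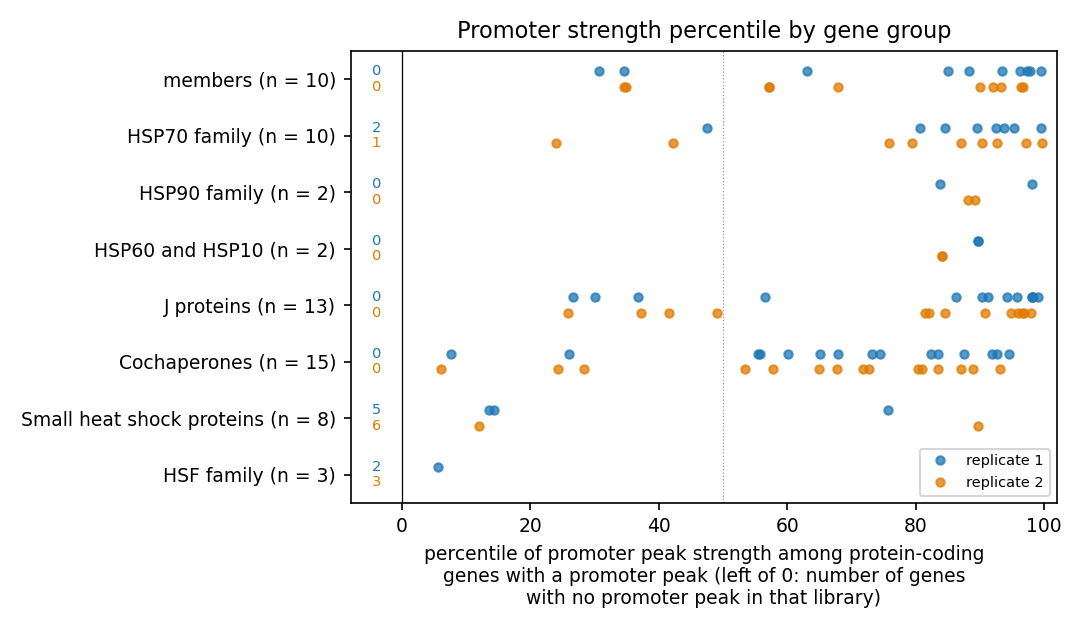
Percentile of promoter peak strength among protein-coding genes with a promoter peak (x axis) for the members and the families of the wider list (rows), with 1 point for each gene and library and, left of 0, the number of genes without a promoter peak. The members lie between percentiles 30.7 and 99.6, and 5 of 8 small heat shock protein genes in replicate 1 and 6 of 8 in replicate 2 have no promoter peak.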

How the data were processed

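DNase-seq libraries of the 2 replicates were analysed as deposited, on mm10. Peak strength is the signal value of the authors' narrowPeak lists, called per library, per the deposited notes; the cut-rate files hold the authors' false discovery rates as p-value type numbers, listed below 0.05, per the file values. The sources used here do not name an aligner, caller, threshold or treatment of reads. Total reads are unknown, so depth is known only through the signal steps (values whole within 0.05 step). The members, wider list and motifs were chosen with earlier results of these data known; the CTCF and X-box searches were added after sequences were seen.

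Promoters, windows, footprint overlap (at least 1 bp) and exact motif matches were computed with Python 3.11.15, numpy 2.4.6 and pandas 2.3.3 against GENCODE M21, and checked on simulated data. No test was made: 1 group of 2 replicates gives values, mean and SD. Named genes are all members; of the wider list, the 5 highest by mean percentile, those without a promoter peak and those sharing a member's promoter or window; of regions away from TSSs, the 5 strongest called in both libraries and the strongest of each library alone. Sequences are from the mm10 (GRCm38.p6) reference of RefSeq, not from the CAST/EiJ allele. RefSeq promoter entries matched 6 of 10 members; Hspa8, Hsp90aa1, Hsp90ab1 and Hsf1 had none.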

Additional observations from a re-analysis of the deposited data

How the results depend on the processing

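Of 73 alternative settings over the main results, 60 kept the value within 1.5 times or within the spread of the replicates. This is a loose rule. Settings that left out 1 replicate had little room to fall outside a spread that the replicates set. The shorter peak lists kept each member's strongest promoter peak, so those strengths could not change. Settings for the strength of single members were counted apart from the 73, and 85 kept the value and 5 did not. Among these, Hsp90aa1 fell from 4.02 to 2.05 at the 5′ end of the gene record alone and still counted as kept. The window set the counts away from TSSs: as the mean of the libraries, peaks away from TSSs numbered 13.5, but 2.5 in gene bodies alone and 34.5 with 25 kb flanks, and footprints away numbered 32, but 6 in gene bodies, 95 with 25 kb flanks and 20.5 at 1000 bp from TSSs. Footprints near TSSs fell from 126 to 52 in gene bodies. Members with a heat shock element in a footprint numbered 1 (0.0683% of protein-coding genes), but 0 without the 5 bp extension. They numbered 2 with 15 bp, with 2-unit elements (2.45%) or with an overlap of 1 bp (added after seeing the data). The share of all genes was not computed for the other footprint settings. Members with a heat shock element in the promoter window numbered 3, but 8 with 2 units (33.5% of protein-coding genes). In settings added after seeing the data, they numbered 7 with 1 mismatch (17.4%) and 0 at the 5′ end of the gene record alone (0.474%). Summing all promoter peaks moved 5 members' strengths, Hspa1a to 2.01, Hspa1b to 2.46, Hsp90aa1 to 7.08, Hsph1 to 9.29 and Hsf1 to 4.67. Leaving out either replicate gave a median strength of 3.14 to 6.31, a percentile of 79.0 to 90.9, 43 to 44 wider genes, 12 to 15 peaks away, and 124 to 128 footprints near and 27 to 37 away from TSSs; the ratio needs both replicates. No paired analysis was possible because there is only 1 group.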
